A study of Mus musculus with 14 samples.

Results

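The 10 genes described here are markers of Kupffer cells, the macrophages that live in the liver sinusoids. They are Clec4f, Vsig4, Cd5l, Marco, Adgre1, Csf1r, C1qa, C1qb, C1qc and Lyz2, out of 18193 genes that the platform table named for a probe set with a single symbol. Every probe set listed with exactly 1 of these symbols was taken, which gave 15 probe sets. Of the 10 genes, 9 passed the signal filter, which kept the brighter 50% of probe sets, and Marco did not. The genes were measured in total RNA of whole liver from 14 male CBA/J mice, an inbred strain, with 1 mouse per Affymetrix array. All mice were housed singly and received 84 kcal per week of a diet based on AIN93M. From 2 months of age, 7 mice ate the control diet and 7 ate a diet with a krill powder extract, which matched it in total protein and total lipid but not in amino acids and fatty acids. The livers came from mice 5 months old, which had then eaten their diet for 3 months. No gene was altered and no cell type was isolated, so a marker's signal in these samples stands for a whole organ. In such RNA, fewer Kupffer cells and less RNA per cell cannot be told apart.

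Kupffer cells stand in the bloodstream of the liver and clear particles, bacteria, old red cells and modified lipoproteins from it. They depend on signalling through the CSF1 receptor, the product of Csf1r, and take up complement-coated particles through CRIg, the product of Vsig4. C1qa, C1qb and C1qc encode the chains of C1q, which starts the classical complement pathway and is made largely by macrophages. Clec4f encodes a lectin that in mouse liver is found on Kupffer cells, Adgre1 the F4/80 antigen, Cd5l a secreted protein of tissue macrophages that is a target of the liver X receptors, Lyz2 the lysozyme of macrophages and neutrophils, and Marco a scavenger receptor.

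The markers did not move as one block between the diets. Cd5l, Lyz2 and Adgre1 rose on the krill diet, by 2.27-fold, 2.15-fold and 1.89-fold, while Vsig4 and C1qc fell by 1.85-fold and 1.44-fold. Clec4f, Csf1r, C1qa and C1qb did not pass the test. Of the 9 tested markers 3 were therefore higher and 2 lower (limma, Benjamini-Hochberg adjusted p under 0.05 over 11308 genes). Over all genes tested, 47.7% were called, 22.9% higher and 24.8% lower, so the share of called markers is close to that of genes at large and shows nothing particular to them. The median log2 change was 0.34 for the 9 markers and 0.04 for all genes.

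Array quality differed between the diets, and its part in each of these values was not tested. Hybridisation spike-ins, added in equal amount and lifted by the scaling of an array whose sample RNA is dim, lay between 12.59 and 13.22 (mean log2 signal) in control arrays and between 12.92 and 14.34 in krill arrays, with krill replicates 2, 4, 5 and 7, the 4 high-spike krill arrays, at 14.12 or above. Probe sets for olfactory receptors, genes that liver is not known to use, had a median signal of 25.4 to 55.4 in control arrays and 32.4 to 184 in krill arrays. The mean log2 3'/5' ratio of the actin and pyruvate carboxylase controls lay between 1.56 and 2.28 in control arrays and between 2.44 and 3.12 in krill arrays, with no overlap. Each marker is therefore given also without krill replicates 2, 4, 5 and 7. In that fit 32.3% of all genes were called, 12.7% higher and 19.6% lower, and of the 9 markers Cd5l, Lyz2 and Adgre1 were called higher and 0 lower (limma; 4 higher and 0 lower at an unadjusted p under 0.05). A fit with the spike-in level as a covariate, in which 17.5% of genes were called, 6.99% higher and 10.5% lower, called Cd5l and Lyz2 higher and 0 lower (limma; 2 higher and 0 lower at an unadjusted p under 0.05).

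The stretches upstream of 4 markers are shown because they belong to the largest rise (Cd5l) and the largest fall (Vsig4) among the 9 markers past the filter, and to a pair of neighbouring genes for chains of the same protein whose fitted changes had opposite signs (C1qb and C1qc). They are the 250 bases before the RefSeq start site in build GRCm38.p6, written 5′ to 3′ on the gene's strand, with the purine-rich box GAGGAA of the macrophage factor PU.1, or its reverse complement TTCCTC, in capitals.
Cd5l, chr3:87357631-87357880, plus strand: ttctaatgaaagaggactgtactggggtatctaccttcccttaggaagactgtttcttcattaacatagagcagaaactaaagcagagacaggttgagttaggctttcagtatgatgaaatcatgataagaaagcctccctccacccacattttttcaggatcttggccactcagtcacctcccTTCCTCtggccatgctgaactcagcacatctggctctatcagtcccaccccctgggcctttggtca
Vsig4, chrX:96293439-96293688, minus strand: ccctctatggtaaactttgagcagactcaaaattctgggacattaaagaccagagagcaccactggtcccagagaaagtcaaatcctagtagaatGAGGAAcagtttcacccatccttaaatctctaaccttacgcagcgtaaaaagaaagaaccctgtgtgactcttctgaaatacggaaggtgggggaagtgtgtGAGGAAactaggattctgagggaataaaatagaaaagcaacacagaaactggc
C1qb, chr4:136886201-136886450, minus strand: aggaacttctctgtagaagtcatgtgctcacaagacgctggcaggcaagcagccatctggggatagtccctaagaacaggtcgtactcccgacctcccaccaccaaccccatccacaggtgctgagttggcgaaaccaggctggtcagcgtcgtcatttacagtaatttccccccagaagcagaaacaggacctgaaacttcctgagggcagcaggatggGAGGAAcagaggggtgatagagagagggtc
C1qc, chr4:136892915-136893164, minus strand: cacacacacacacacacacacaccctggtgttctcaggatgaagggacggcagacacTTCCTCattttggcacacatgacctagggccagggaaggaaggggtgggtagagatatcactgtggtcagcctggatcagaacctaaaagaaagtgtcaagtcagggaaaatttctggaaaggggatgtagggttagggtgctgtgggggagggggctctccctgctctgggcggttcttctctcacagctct

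The box was found 2 times upstream of Vsig4, starting 155 and 53 bases before the start site. It was found 1 time each upstream of Cd5l, C1qb and C1qc, 66, 30 and 193 bases before it. The table held such a stretch for 7 of the 10 markers, and 5 had the box, Marco being the fifth. Of 32851 upstream stretches of this length in the table, 23.3% held it on either strand. The genes with the box included markers that rose and markers that fell. A match describes letters only and is no measured binding site.

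**Figure D1:**
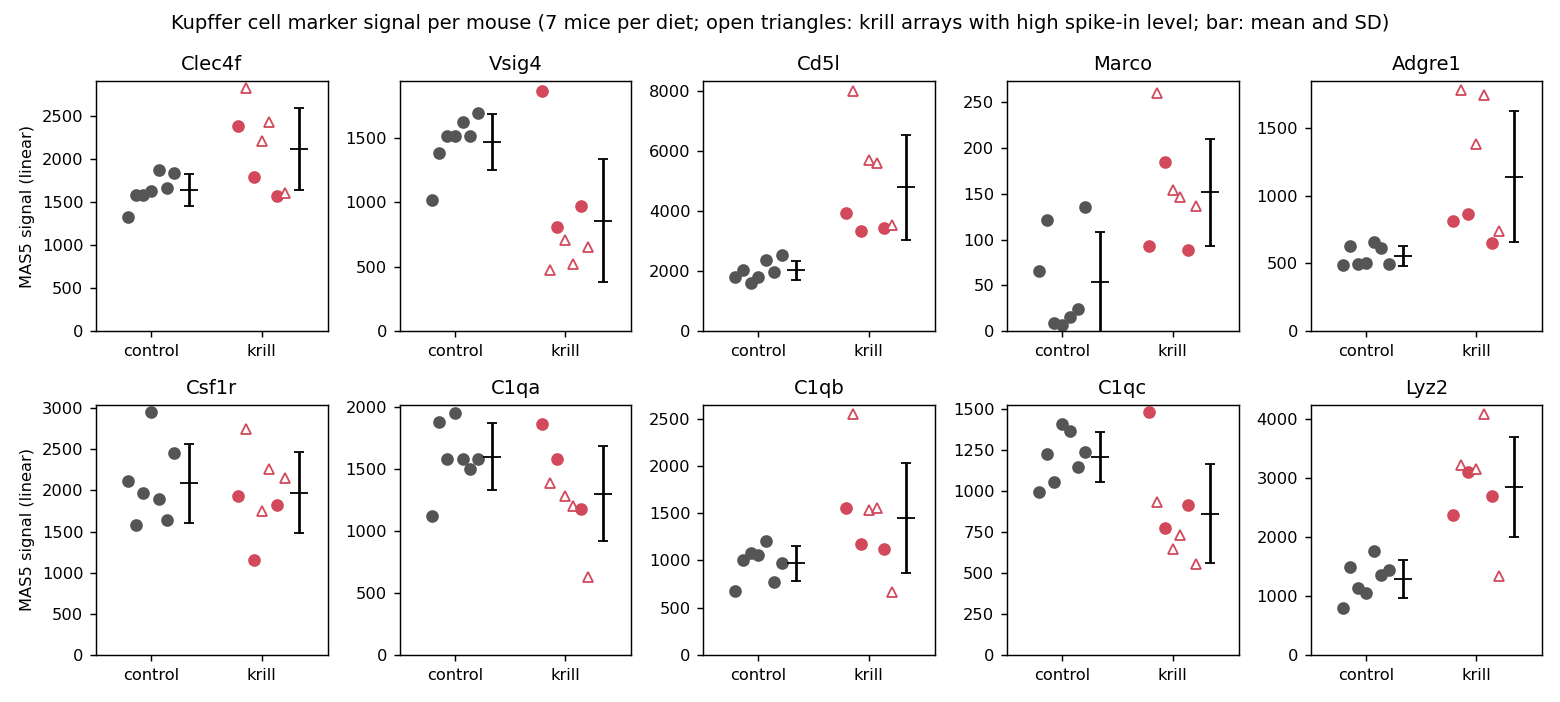
MAS5 signal (linear scale, from 0) of each marker in each mouse, with grey points for control and red for krill livers, open triangles for krill replicates 2, 4, 5 and 7, and bars for the mean and SD of 7 mice (cut at 0 for Marco, shown by its brighter probe set). For Cd5l the lowest krill mouse, at 3327, lies above the highest control mouse, at 2544. For Vsig4 and C1qc 6 of 7 krill mice lie below every control mouse and krill replicate 1 lies above them all.

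Among the genes that define the lineage, Csf1r, the receptor on which Kupffer cells depend, had a signal of 1585 in the lowest, 1974 in the median and 2953 in the highest control mouse. In krill mice these values were 1151.5, 1928 and 2748. In this probe set, its brightest, the groups overlapped nearly throughout, with 1 krill mouse, replicate 3, below the control range. The means were 2089 ± 481 (SD, n = 7) and 1971 ± 494 (SD, n = 7), and the log2 change was -0.09 (SE 0.19, limma adjusted p = 0.697). The change was 0.026 without krill replicate 3, 0.045 with quantile normalization, and -0.88, called lower, with arrays scaled to their spike-ins. The other 2 probe sets of Csf1r stood at -0.32 and -0.16 (limma over all 45037 probe sets, of which 28.5% were called, adjusted p = 0.267 and 0.575). In the one at -0.16, 4 krill mice lay below the control range and 2 above it. All 3 probe sets were then fitted without the 4 high-spike krill arrays and stood at -0.36, -0.53 and -0.53, of which none passed (adjusted p from 0.0501 to 0.286).

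Adgre1, the F4/80 antigen by which mouse macrophages are usually stained, ranged from 485 through a median of 505 to 662 in control mice. In krill mice it ranged from 654 through 867 to 1782. All but krill replicate 6 lay above the control range, and replicates 2, 4 and 5 lay between 1381.5 and 1782. The means were 556 ± 75.2 (SD, n = 7) and 1140 ± 485 (SD, n = 7), which gave a log2 difference of 0.92 with SE 0.22 (limma adjusted p = 0.00306). The change was 0.48 without the 4 high-spike krill arrays, which passed over the 11308 genes (limma adjusted p = 0.037) and not over the 45037 probe sets (limma adjusted p = 0.0746). With the spike-in level as a covariate it was 0.47, short of the threshold (limma adjusted p = 0.228). After centring or spike-in scaling of the arrays it was 0.52 and 0.15, and neither passed (limma adjusted p = 0.0625 and 0.652).

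Clec4f, the lectin most particular to Kupffer cells, ranged from 1323 through 1634 to 1873 in control mice and from 1566 through 2215 to 2832 in krill mice. Krill replicates 1, 2, 4 and 5 lay above every control mouse and the other three within the control range. The means were 1641 ± 182 (SD, n = 7) and 2117 ± 477 (SD, n = 7), with a log2 difference of 0.34 (SE 0.16) that missed the threshold (limma adjusted p = 0.088). It passed without krill replicate 6 or 7, at 0.41 and 0.40 (limma adjusted p = 0.0463 and 0.0413), and with quantile normalization, at 0.50. Median centring of the arrays turned it to -0.0615 and spike-in scaling to -0.44. It was 0.21 without the 4 high-spike krill arrays (limma adjusted p = 0.345).

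Vsig4, the receptor for complement-coated particles, gave the largest fall. In control mice it ranged from 1020 through 1515 to 1694. In krill mice it ranged from 474 through 704 to 1864.5. The 6 lower krill mice lay below every control mouse, at 474 to 974, and krill replicate 1 lay above all of them. The means were 1466 ± 220 (SD, n = 7) and 858 ± 475 (SD, n = 7), which gave a log2 difference of -0.89 with SE 0.24 (limma adjusted p = 0.00598). The 4 krill mice with a high spike-in level were the lowest of the group, at 474 to 704. Without them the change was -0.35 and did not pass (limma adjusted p = 0.26). With the spike-in level as a covariate it was -0.28 (limma adjusted p = 0.471). Arrays scaled to their spike-ins gave -1.66 (limma adjusted p = 0.00315), where the median of all genes was -0.71. Arrays centred on their medians gave -1.29 (limma adjusted p = 0.0124), where that median was -0.36. The call held in all 14 fits that left out a single array.

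Of the 3 chains of C1q, which form a single protein, C1qc was called lower and the other two did not pass, and differences between chains were not tested. C1qc ranged from 993 through 1224 to 1406 in control mice and from 555.5 through 773 to 1477 in krill mice. As for Vsig4, 6 krill mice lay below every control mouse and krill replicate 1 above them all. The means were 1203 ± 152 (SD, n = 7) and 860.5 ± 303 (SD, n = 7), which gave a log2 difference of -0.53 with SE 0.19 (limma adjusted p = 0.0281). The call of C1qc ended without any 1 of control replicates 4 and 5 and krill replicates 4, 5 and 7 (log2 changes -0.49, -0.50, -0.47, -0.50 and -0.44, limma adjusted p from 0.0501 to 0.0616). Without krill replicate 1 the change was -0.67 (limma adjusted p = 0.00241). The call ended too with quantile normalization, at -0.31 (limma adjusted p = 0.176). With the replicate number of the labels as a block the limma adjusted p was 0.052. Without krill replicates 2, 4, 5 and 7 the change was -0.23 (limma adjusted p = 0.375). The call held with array weights, at -0.57 (limma adjusted p = 0.00781). It held too with centred arrays and with spike-in scaling, at -0.93 and -1.30 (limma adjusted p = 0.0247 and 0.00529). Of 29 alternative fits 19 kept the call and 10 did not. C1qa ranged from 1118 through 1581 to 1949 in control mice and from 626 through 1277 to 1857 in krill mice. Krill replicate 7, at 626, was the single krill mouse below the control range. The means of C1qa were 1598 ± 271 (SD, n = 7) and 1300 ± 382 (SD, n = 7). Its log2 change was -0.34 (SE 0.20, limma adjusted p = 0.176), and it was -0.061 without the 4 high-spike krill arrays. With spike-in scaling C1qa was called lower, at -1.11 (limma adjusted p = 0.0155).

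C1qb was the chain with the higher krill signal. Its brightest probe set ranged from 677 through 1005 to 1210 in control mice and from 664 through 1536 to 2555 in krill mice. Krill replicates 1, 2, 4 and 5 lay above the control range and replicate 7 below it. The means were 969 ± 184 (SD, n = 7) and 1451 ± 585 (SD, n = 7), and the log2 change of 0.50 (SE 0.23) did not reach the threshold (limma adjusted p = 0.0804). It passed without krill replicate 7, at 0.67 (limma adjusted p = 0.0102), with the mean of its probe sets, at 0.56, with array weights, at 0.53, and with quantile normalization, at 0.71, while spike-in scaling turned it to -0.28. The other 2 probe sets, whose x suffix marks probes that may also match other transcripts, stood at 0.70 and 0.48 (limma over 45037 probe sets, of which 16% were called higher, adjusted p = 0.0234 and 0.109). In the fit without the 4 high-spike krill arrays the 3 probe sets stood at 0.41, 0.21 and 0.15 and none passed (adjusted p from 0.168 to 0.704).

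Of the secreted products, Cd5l was the one marker whose diets did not overlap. It ranged from 1616 through 1980 to 2544 in control mice and from 3327 through 3936 to 8017 in krill mice. Among all genes tested 14.1% had no overlap between the diets, 6.52% with krill higher and 7.61% with krill lower. The means were 2025 ± 328 (SD, n = 7) and 4793 ± 1741 (SD, n = 7), which gave a log2 difference of 1.18 with SE 0.20 (limma adjusted p = 0.000159). The change was 0.82 and passed without the 4 high-spike krill arrays (limma adjusted p = 0.00181), and was 0.82 as well with the spike-in level as a covariate (limma adjusted p = 0.0216). With spike-in scaling it was 0.39 and did not pass (limma adjusted p = 0.23), and with the 3'/5' index as a covariate it was 0.82 (limma adjusted p = 0.343). In the last fit limma called 0 of 11308 genes, with 625 higher and 1248 lower at an unadjusted p under 0.05. The index of every krill array lies above that of every control array, so diet and this index cannot be told apart.

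Lyz2 ranged from 798 through 1356 to 1770 in control mice and from 1344 through 3099 to 4085 in krill mice. All krill mice but replicate 7 lay above the control range. The means were 1293 ± 322 (SD, n = 7) and 2854 ± 849 (SD, n = 7), which gave a log2 difference of 1.11 with SE 0.22 (limma adjusted p = 0.00071). It was the marker least moved by leaving out the krill arrays with a high spike-in level, at 1.10 (limma adjusted p = 0.00189), and stood at 1.10 with the spike-in level as a covariate (limma adjusted p = 0.0177). With arrays centred on their medians it was 0.70 and with spike-in scaling 0.33, and it passed in neither (limma adjusted p = 0.0591 and 0.439). With the 3'/5' index as a covariate it was 1.45 (limma adjusted p = 0.17). Lyz1, a closely similar neighbouring gene, rose by 1.13 (SE 0.27, limma adjusted p = 0.00256), and how far the probes of each read the other was not tested.

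Marco lay at the level of background. Its first probe set ranged from 5.08 to 74.6 in control and from 10.2 to 47.2 in krill mice, and the groups overlapped. Its second ranged from 6.8 through 23.9 to 135 in control mice and from 88.6 through 146 to 260 in krill mice, and was called higher by 1.58 (SE 0.46, limma over 45037 probe sets, adjusted p = 0.0144). The median signal of 44 olfactory receptor probe sets, which moved the same way, averaged 38.5 ± 9.58 (SD, n = 7) over the control arrays. Over the krill arrays it averaged 116 ± 62.6 (SD, n = 7). The part of this background in the rise was not tested. When the 4 high-spike krill arrays were left out, the second probe set stood at 1.30 and did not pass (limma adjusted p = 0.185).

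**Figure D2:**
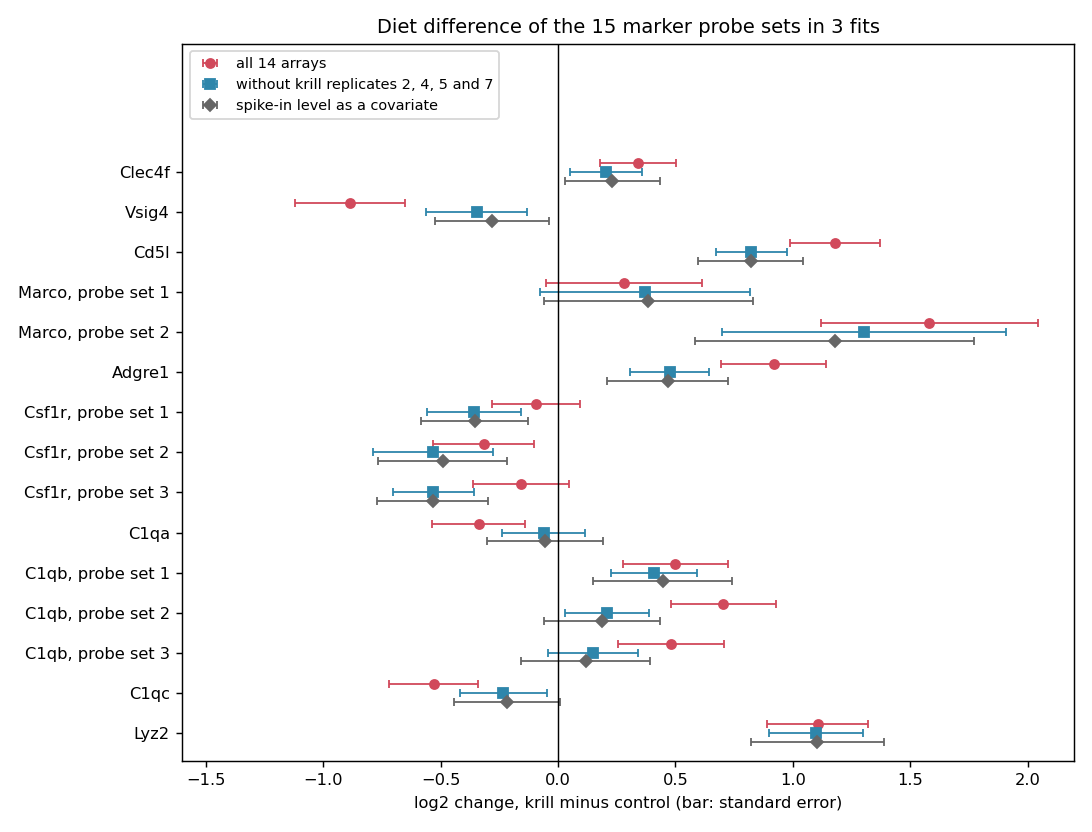
Log2 change (krill minus control, x axis) of the 15 marker probe sets with the moderated standard error as a bar, for all 14 arrays (circles), without krill replicates 2, 4, 5 and 7 (squares) and with the spike-in level as a covariate (diamonds). Lyz2 stands near 1.1 in all 3 fits, while Vsig4 moves from -0.89 to -0.35 and -0.28.

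The scaling of the arrays set part of these values. With arrays centred on their medians the median log2 change of all genes was -0.36, and with spike-in scaling it was -0.71. Both use 1 factor per array, so apart from the pseudocount they leave a gene's distance from that median as it was. Quantile normalization can move genes differently. Relative to the median of all genes, Cd5l stood at 1.14 as deposited and at 1.19 after quantile normalization, Lyz2 at 1.06 and 1.23, and Adgre1 at 0.88 and 1.13. Vsig4 stood at -0.93 and -0.74, C1qc at -0.57 and -0.34, and Csf1r at -0.14 and 0.013.

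Whether the markers moved together from mouse to mouse was asked within each diet, since a correlation over both would hold the diet difference too. In control mice the median Pearson r of the 36 pairs of tested markers was 0.501, with 33 pairs above 0. In krill mice the median was 0.483, with 26 pairs above 0. Each gene entered by its brightest probe set, and pairs with the other probe sets of Csf1r and C1qb were not tested. With the mean of the probe sets of a gene the medians were 0.426 in control and 0.485 in krill mice. Over all 63929778 pairs of tested genes the median r was 0.01 in either diet. Of the marker pairs 50% had an r above 0.5 in control and 47.2% in krill mice, against 17% and 21.4% of all gene pairs. The markers lay between percentiles 63.1 and 87 of the signal of tested genes. All gene pairs include dimmer genes, and the comparison was not matched for signal. No pair passed adjustment over the 72 pairs and diets: 0 had an adjusted p under 0.05 by Pearson or by Spearman, and at an unadjusted p under 0.05 there were 4 control and 6 krill pairs by Pearson and 1 and 4 by Spearman (exact permutation tests over 5040 pairings, two-sided). With 7 mice per diet the medians describe these mice, and pairs that share a gene are not independent.

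The closest pair in control mice was Clec4f and Vsig4, with r = 0.942 (exact permutation p = 0.00337, adjusted p = 0.121) and rho = 0.893 (exact permutation p = 0.0123, adjusted p = 0.295). Without the 2 mice farthest from the Clec4f median r was 0.894. In krill mice the same pair had r = -0.198, and the difference of 1.14 between the diets did not pass (permutation over all 3432 assignments of mice, standardised within each diet, p = 0.109, adjusted p = 0.742 over 36 pairs). Clec4f and Lyz2 had r = 0.87 in control mice (exact permutation p = 0.0149, adjusted p = 0.268) and rho = 0.714 (exact permutation p = 0.0881, adjusted p = 0.415). Without the 2 mice farthest from the Clec4f median that r was 0.379, though the narrower range tends to lower r by itself.

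In krill mice the closest pairs were Cd5l and Adgre1, with r = 0.928 (exact permutation p = 0.00813, adjusted p = 0.195) and rho = 0.75 (exact permutation p = 0.0663, adjusted p = 0.415), and Clec4f and C1qb, with r = 0.894 (exact permutation p = 0.00278, adjusted p = 0.121) and rho = 0.929 (exact permutation p = 0.00675, adjusted p = 0.295). Without the 2 farthest mice these were 0.93 and 0.922. In both pairs krill replicates 2, 4 and 5, all high-spike arrays, were among the brightest 4 mice. Krill replicate 7, the array with the highest spike-in level, was not. It had 3541 for Cd5l, 739 for Adgre1, 1602 for Clec4f and 664 for the brightest probe set of C1qb. Replicate 1, with a low level, was brighter than replicate 4 for Clec4f and for that probe set. It was dimmer in the other C1qb probe sets, at 1302 against 1799 and 1274 against 1466. The spike-in level fell into separate clusters of 4 and 3 krill mice, too few for a correlation within each, and its part in these pairs was not tested. Over the 7 krill mice the level had r = -0.83 with Vsig4 (exact permutation p = 0.00516, adjusted p = 0.0929), -0.71 with C1qc and -0.626 with C1qa. With Adgre1, Cd5l and Csf1r r was 0.617, 0.611 and 0.577, and with Clec4f, C1qb and Lyz2 0.269, 0.04 and -0.07. None passed adjustment over the 18 markers and diets. In krill mice Vsig4 correlated above 0 with only 2 of the other 8 markers, C1qa and C1qc, against all 8 in control mice. For none of these pairs did the difference between the diets pass adjustment; the smallest p of all 36 was that of Adgre1 and Csf1r, with r = -0.698 in control and 0.481 in krill mice (permutation p = 0.0146, adjusted p = 0.525).

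**Figure D3:**
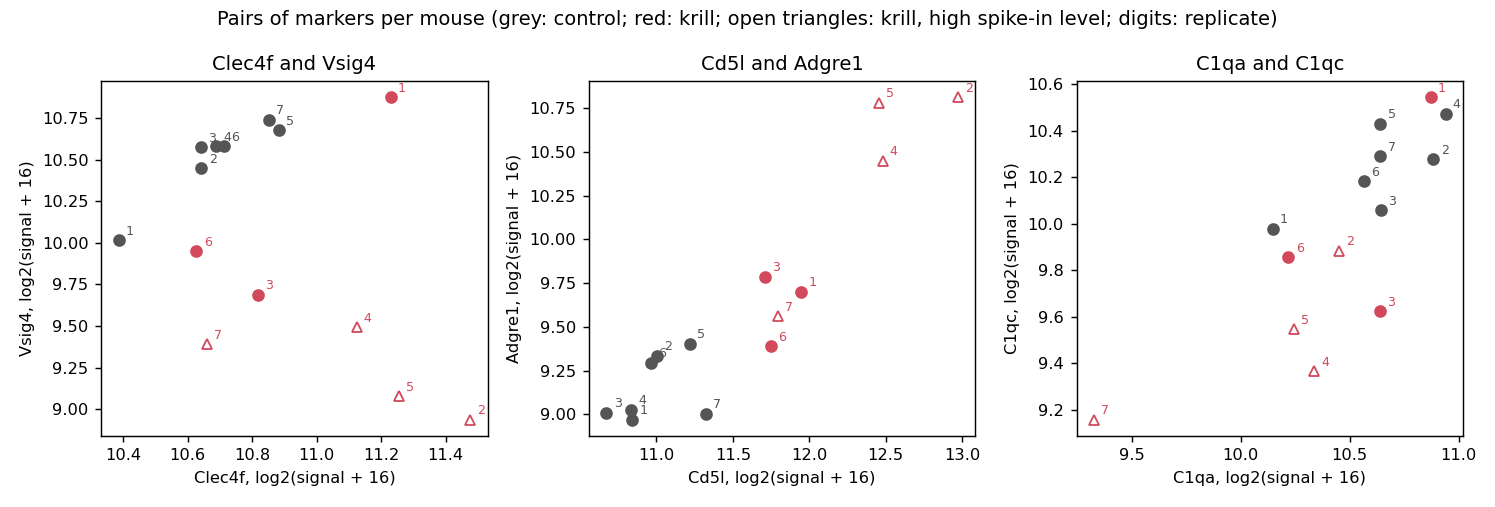
Signal of 3 pairs of markers per mouse, each axis log2(signal + 16), with grey for control, red for krill and open triangles for krill replicates 2, 4, 5 and 7; digits give the replicate. The control mice of Clec4f and Vsig4 lie along 1 line with r = 0.942 and the krill mice do not, with r = -0.198.

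For the chains of C1q r was above 0 in both diets for all 3 pairs, and none passed adjustment. C1qa and C1qc had r = 0.752 in control (exact permutation p = 0.0375, adjusted p = 0.27) and 0.761 in krill mice (exact permutation p = 0.0675, adjusted p = 0.27), with rho = 0.571 and 0.679 (exact permutation p = 0.2 and 0.109, adjusted p = 0.48 and 0.415). Without the 2 mice farthest from the C1qa median these r were 0.173 and 0.02. Leaving out its extreme mice narrows the range of C1qa and tends to lower r by itself, so these values cannot show what the correlation rests on. C1qa and C1qb had r = 0.73 and 0.689 (exact permutation p = 0.056 and 0.0887, adjusted p = 0.27 for each) and rho = 0.536 and 0.679 (exact permutation p = 0.236 and 0.109, adjusted p = 0.485 and 0.415), and these r became 0.254 and 0.069. C1qb and C1qc had r = 0.682 and 0.485 (exact permutation p = 0.0901 and 0.256, adjusted p = 0.27 and 0.471) and rho = 0.536 and 0.643 (exact permutation p = 0.236 and 0.139, adjusted p = 0.485 and 0.476), and these r became 0.26 and 0.098. By its brightest probe set Csf1r was the marker least like the others in control mice, with a median r of 0.089 with the other 8.

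The median r fell most without 1 particular mouse of each diet. Control replicate 1 was the lowest control mouse for 7 of the 9 markers, namely Clec4f, Vsig4, Adgre1, C1qa, C1qb, C1qc and Lyz2, and without it the control median r was 0.242, with 27 of 36 pairs above 0. Krill replicate 7 was the lowest krill mouse for C1qa, C1qb, C1qc and Lyz2, and without it the krill median r was 0.218, with 23 pairs above 0. For C1qb both held only in its brightest probe set. In its other probe sets krill replicate 6 was lowest, at 708 and 665, with replicate 7 at 1146 and 839. Control replicate 1 was there the control median, at 851.5 and 943. Leaving out any other single mouse gave medians of 0.457 to 0.664 in control and 0.387 to 0.542 in krill mice. With the spike-in level taken out by regression within each diet the krill median r was 0.663.

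**Figure D4:**
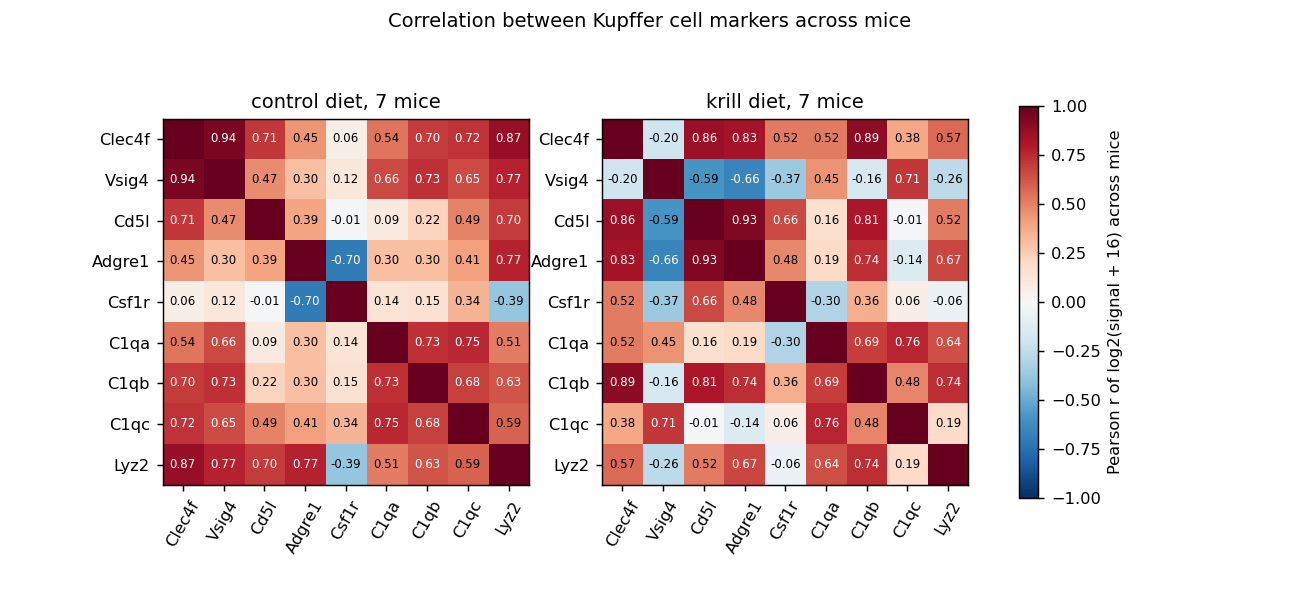
Pearson r of log2(signal + 16) for each pair of the 9 tested markers across 7 control mice (left) and 7 krill mice (right), with red above 0 and blue below. In the control panel 33 of 36 pairs are above 0 and in the krill panel 26, with Vsig4 in a row mostly below 0.

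The genes outside the marker set whose signal most resembled it were taken by their r with the mean standardised deviation of the 9 markers over the 14 mice, after the diet means were taken out. They were Ifi202b (r = 0.89), the complement factor properdin Cfp (0.873), the arginine methyltransferase Prmt1 (0.85), Tmem68 (0.824), Tyrobp, an adaptor of myeloid receptors (0.823), Lyz1 (0.813), Wfdc17 (0.799) and the ficolin Fcna (0.79). Within the diets Prmt1 had r = 0.309 in control and 0.958 in krill mice, and Fcna 0.528 and 0.869. For the others r lay from 0.693 to 0.901 in control and from 0.797 to 0.926 in krill mice. Cfp and Fcna stood in the list of further Kupffer cell genes. Among the markers, each by its brightest probe set, Clec4f and C1qb were closest to the mean of the other markers (r = 0.902 for each). Csf1r had 0.16 and Vsig4 -0.02, and the other probe sets of Csf1r and C1qb were not tested in this way.

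Further Kupffer cell genes outside the set moved in both directions too. Of 11 tested, 2 rose, 1 fell and 8 did not pass, with a median log2 change of 0.19. Nr1h3, the liver X receptor alpha, rose by 0.64 (SE 0.18, limma adjusted p = 0.00782) and stood at 0.73 without the 4 high-spike krill arrays (limma adjusted p = 0.00237). Hpgd, a prostaglandin-degrading enzyme, rose by 0.70 (limma adjusted p = 0.00279), and Axl, a receptor for dying cells, fell by 0.87 on the log2 scale (limma adjusted p = 0.0274). Timd4 and Cd163, markers of long-lived resident macrophages, stood at 0.38 and 0.28, short of the threshold (limma adjusted p = 0.171 and 0.238). Hepatocytes express Nr1h3 too, so its signal in whole liver is not that of macrophages alone. Without the 4 high-spike krill arrays 2 of the 11 were higher and 2 lower, with a median of -0.08.

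Of 19 genes of myeloid cells in general, 6 rose, 3 fell and 10 did not pass, with a median of 0.47. Tyrobp rose by 0.90, the scavenger receptor Msr1 by 0.84, the oxidase subunit Cybb by 0.82 and the mannose receptor Mrc1 by 0.64. The lysosomal protease Lgmn fell by 1.13 on the log2 scale and the lysosomal macrophage antigen Cd68 by 0.65. Ptprc, the antigen of all leukocytes, stood at 0.54 over all arrays (limma adjusted p = 0.0549) and at 0.058 without the 4 high-spike krill arrays. In that fit Tyrobp, Msr1 and Cybb stood at 0.77, 0.91 and 0.71 and passed, Mrc1 at 0.32 did not, and 5 of the 19 were called higher and 2 lower.

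In the axis of the CSF1 receptor 1 of 8 tested genes, Tyrobp, rose and 0 fell (limma; at an unadjusted p under 0.05 also 0 fell). The ligands Csf1 and Il34 stood at -0.30 and 0.43 and the macrophage transcription factor Spi1, also called PU.1, at 0.45, and none of them passed (limma adjusted p = 0.271, 0.459 and 0.185). Cbl, a ubiquitin ligase that acts on the receptor, stood at -0.43 over all arrays (limma unadjusted p = 0.162) and was called lower, at -1.01, without the 4 high-spike krill arrays (limma adjusted p = 0.0116) and, at -1.03, with the spike-in covariate (limma adjusted p = 0.0435). With that covariate Tyrobp, at 0.77, did not pass (limma adjusted p = 0.092). In the classical complement pathway, to which C1q belongs, 1 of 6 tested genes rose and 4 fell, with a median of -0.68. C2, a protease of the pathway, fell by 1.16, the C1 subunit C1s1 by 0.93 and the C1 inhibitor Serping1 by 0.60 on the log2 scale; hepatocytes make most of these. The median of this list was -0.13 without the 4 high-spike krill arrays, with 1 higher and 2 lower. In that fit C2 and Serping1 passed, at -0.77 and -0.60 (limma adjusted p = 0.0167 and 0.00939), and C1s1, at -0.24, did not (limma adjusted p = 0.52). Of 11 scavenger receptors, the class of Marco, 2 rose and 4 fell, with a median of -0.21.

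Markers of other cells that could share or add to the signal moved in both directions as well. Of the 16 written markers of monocytes and neutrophils 5 were tested, of which S100a8 and Lyz1 rose, by 1.42 and 1.13, and 3 did not pass; the summed signal of the 5 was 2348 to 5122 in control and 3637 to 10680 in krill mice. S100a8, a calcium-binding protein of neutrophils, passed the signal filter only through its krill values, with a mean log2 level of 6.64 in control and 8.06 in krill mice against a limit of 6.87. It stood at 0.91 without the 4 high-spike krill arrays (limma adjusted p = 0.0387) and at 0.75, short of the threshold, with the spike-in covariate (limma adjusted p = 0.107). Of the other 11 markers 8, among them Ccr2, Itgam and S100a9, lay under the filter and 3 were listed for no probe set by a single symbol. The part of these cells in the rise of Lyz2 was not tested. Of 16 written markers of the sinusoidal endothelium, the neighbours of Kupffer cells, 14 were tested, of which 3 rose and 2 fell. The other 2, Pecam1 and Tie1, lay under the filter. Both were called lower, at -1.40 and -1.61 (limma over 45037 probe sets, of which 12.5% were called lower, adjusted p = 0.0336 and 0.00969). The nuclease Dnase1l3 fell by 1.98 on the log2 scale and the growth factor Bmp2 rose by 1.80, and without the 4 high-spike krill arrays they stood at -1.79 and 0.95 and passed (limma adjusted p = 0.00074 and 0.00365). Lyve1 and Stab2, receptors of that endothelium, changed by 1.06 and -0.90, and in the same fit Stab2 passed at -0.78 (limma adjusted p = 0.0129) and Lyve1, at 0.48, did not (limma adjusted p = 0.158). The summed signal of the 14 was 15290 to 18470 in control and 18070 to 35760 in krill mice. The summed signal of the 9 Kupffer cell markers was 10350 to 14350 in control and 11880 to 23940 in krill mice. For the 6 tested hepatocyte markers it was 251800 to 360800 in control and 323400 to 691600 in krill mice. Such sums are weighted to the brightest probe sets and carry the scaling of each array, so they do not count cells. Of 6 tested hepatocyte markers 3 rose, Alb, for albumin, among them by 0.53 (limma adjusted p = 0.0254), and the calls of all 3 ended without the 4 high-spike krill arrays, with Alb at 0.37 (limma adjusted p = 0.124). Of 7 B cell genes 4 were tested, of which the B cell antigen Ms4a1 and the antibody joining chain Jchain rose, by 1.09 and 0.72 (limma adjusted p = 0.00393 and 0.0161), and the others did not pass. Ms4a1 passed the filter only through its krill values, and both calls ended without the 4 high-spike krill arrays, at 0.61 and 0.30 (limma adjusted p = 0.136 and 0.38). Of 12 T and NK cell genes and of 5 bile duct genes 1 each was tested, and neither passed. Of the lymphocyte, bile duct, monocyte and neutrophil markers under the filter, Nkg7, Ltf, Ebf1, Chil3 and Cftr were called higher. The others did not pass. The log2 changes were 2.00, 1.84, 1.41, 1.36 and 1.07 (limma over 45037 probe sets, of which 16% were called higher, adjusted p from 0.00517 to 0.0432). Their mean signals in control mice were 13.3 to 38, and the part of background in these rises was not tested. Of stellate cell markers 3 of 11 tested rose and 3 fell, of lipid-associated macrophage markers 1 of 4 rose, Lgals3, and 1 fell, Cd9, and of dendritic cell markers the 1 tested did not pass.

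**Figure D5:**
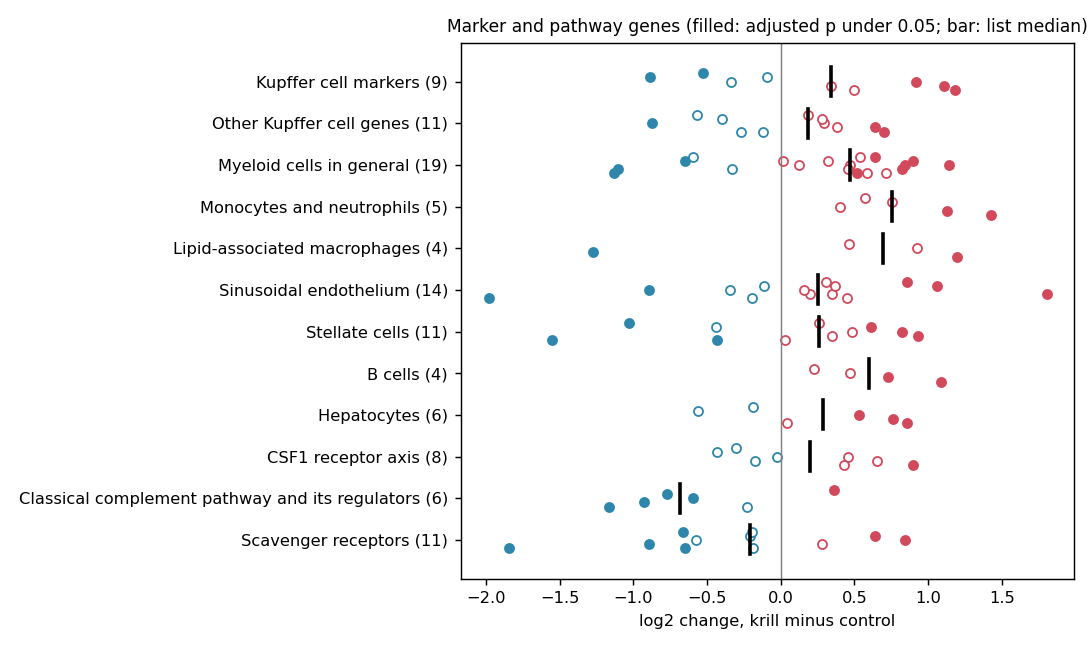
Log2 change (krill minus control, x axis) of each tested gene of the lists with 3 or more tested genes (number tested in parentheses), filled where limma's adjusted p is under 0.05, with a bar at the list median. The 9 Kupffer cell markers spread from -0.89 to 1.18 around a median of 0.34.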

How the data were processed

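Liver RNA of 14 mice, 7 per diet, was read on 14 arrays. Per the submitters' processing notes the authors made the deposited signal intensity values, linear and 1 per probe set, with MAS5 (version not given in the sources used here). Its scaling gives all arrays the same trimmed mean, which lifts dim signals on an array with dim RNA. Arrays have no read depth, and their number limits the precision. Detection calls were not used here.

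Of 45101 probe sets 64 were controls, 34945 had 1 gene symbol in the platform table, 932 several and 9160 none listed. Signal was transformed as log2(signal + 16), and fold changes on this scale understate those of dim genes. The 22518 probe sets with the higher mean were kept and the one with the highest mean stood for a gene, leaving 11308. All arrays entered lmFit and eBayes with trend (limma 3.58.1, R 4.3.3) with diet as the only term and Benjamini-Hochberg adjustment. A second such fit took all 45037 probe sets that are not controls. Levels of different probe sets were not compared. Correlations were tested in Python 3.11.15 by exact permutation, within each diet; the test of a difference in correlation was added later. Both procedures were tested on simulated data.

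The titles of the samples gave each mouse its diet and number, and no label says that a number pairs mice. The text names all markers and, from each list, up to 4 genes with the smallest p, a panel whatever their p (Timd4, Cd163, Nr1h3, Cd68, Ptprc, Csf1, Il34, Stab2, Lyve1, Alb, S100a8) and the 8 genes most like the markers. Members, lists and alternatives were chosen with earlier results of these data known.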

Additional observations from a re-analysis of the deposited data

Results flagged for a closer look

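In Vsig4, control replicate 1 stood apart from the other control mice at a signal of 1020, its gap to the nearest mouse being 0.599 of the range of the 7 on the log2 scale. In C1qa, krill replicate 7 stood apart from the other krill mice at a signal of 626, with a gap of 0.578 of the range. Of the 18 sets of 7 mice examined, 9 markers in each diet, these 2 passed Dixon's 95% critical value, and chance flags about 1 in 20.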

How the results depend on the processing

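Over 29 alternative fits, 14 of which left out 1 array, 224 of 261 marker values kept their direction and their side of the threshold, 22 lost and 9 gained a call and 6 turned sign, of which 3 did so under scalings by 1 factor per array (centring, spike-in scaling), which move all genes alike. As set out, 3 markers were higher and 2 lower. With quantile normalization 5 were higher and 1 lower, against 2750 and 2536 of all 11308 genes, and Csf1r turned to 0.045. With centred arrays 1 was higher and 2 lower, against 1003 and 3722 genes, and Clec4f turned to -0.0615. With spike-in scaling 0 were higher (limma; 0 at an unadjusted p under 0.05) and 4 lower, the marker median was -0.44, Clec4f turned to -0.44 and C1qb to -0.28, and 334 genes were higher and 5451 lower. With every probe set past the filter 4467 were higher and 5575 lower. With the replicate block 3 markers were higher and 1 lower, against 2508 and 2745 genes. C1qc was the only marker whose call it changed (limma adjusted p = 0.052). The deviations of same-numbered arrays correlated at -0.023 to 0.098. These values cannot decide whether the numbers pair the mice. With the spike-in covariate 0 markers were lower (limma; 0 at an unadjusted p under 0.05), and 790 genes were higher and 1188 lower. With the 3'/5' index 0 markers were higher and 0 lower (limma; 1 and 1 at an unadjusted p under 0.05), 0 genes were higher and 0 lower (625 and 1248 unadjusted) and C1qa turned to 0.54. Without krill replicates 2, 4, 5 and 7, 0 markers were lower (limma; 0 unadjusted) and 1438 genes higher. Leaving out 1 array gave 3 to 5 markers higher, 5 without krill replicate 7, and 1 to 2 lower, against 2206 to 3125 and 2428 to 3022 genes; Csf1r ranged from -0.18 to 0.026, its sign turning without krill replicate 3. The median r between markers ranged from 0.242 to 0.664 in control and from 0.218 to 0.542 in krill mice when 1 mouse was left out, and in krill mice was 0.73 with centred arrays, 0.84 with spike-in scaling and 0.663 with the spike-in level taken out. Centring and spike-in scaling move all genes of an array alike, a movement that every pair of genes shares. Its part in these shifts was not tested. The median r of all gene pairs is not given under these settings. Their marker medians can therefore not be set against the 0.01 of all pairs. Signal near background limits Marco and most lymphocyte and neutrophil markers.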
